A study of Mus musculus with 15 samples.

Results

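The combined loss of 2 histone deacetylases, Hdac1 and Hdac2, was compared with control in mouse embryonic fibroblasts across all genes on an expression array. The comparison was defined by the sample titles and uses 6 of the 15 arrays of the series, 3 for combined loss and 3 for control, and the remaining 9 arrays entered the same model. All cells were primary fibroblasts from male embryos. Control cells carried Hdac1 alleles flanked by loxP sites (fl/fl), received a micro-RNA with a scrambled sequence and were treated with the solvent ethanol. The cells with combined loss (combined-loss cells) carried the same fl/fl alleles, received the micro-RNA directed at Hdac2, and were treated with 200 nM tamoxifen, which activates a Cre-ERT2 recombinase. Both groups, controls included, were transduced with a Cre-ERT2 retrovirus and with a micro-RNA retrovirus, so neither virus separates them. The companion groups of 3 arrays each were fl/fl cells with the scrambled micro-RNA and tamoxifen (Hdac1 KO), fl/fl cells with the Hdac2 micro-RNA and ethanol (Hdac2 Kd), and Hdac1 +/+ cells with tamoxifen, whose viruses are not given.

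Histone deacetylases remove acetyl groups from lysines of histone tails and of other proteins, and loss of acetylation at a promoter usually goes with lower transcription. HDAC1 and HDAC2 are close paralogs that sit together in the SIN3, NuRD and CoREST complexes and are brought to DNA by sequence-specific repressors, among them the E2F factors with their pocket proteins. Single loss of either enzyme is commonly compensated by the other, whereas dividing cells that lose both are known to stop cycling. The design has limits as a model: Hdac2 was knocked down and not deleted, deletion and tamoxifen cannot be told apart within combined loss against ethanol control alone, and the labels do not say that the 3 arrays of a group come from separate cultures, so the p-values measure only the spread between these arrays, which may be technical.

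Hdac1 signal, in the deposited intensity units used throughout, was 3499, 3498 and 3673 on the control arrays and 106, 158 and 203 on the combined-loss arrays. The remaining signal was 4.37% of the control mean, against 4.52% in Hdac1 KO cells, and the log2 fold change was -4.42 ± 0.15 (standard error; adjusted p = 3.08e-13, limma with Benjamini-Hochberg adjustment over all genes tested). Hdac2 was at 6536, 7354 and 7264 on the control arrays and at 1030, 1013 and 1031 on the combined-loss arrays. That left 14.5% of the control mean, against 13.6% in Hdac2 Kd cells, with a log2 fold change of -2.76 ± 0.07 (adjusted p = 3.09e-14). As the mean of all its probe sets the Hdac2 change was -1.80. Both targets were thus low on every combined-loss array, with no overlap with control. The other class I deacetylases did not fall. Hdac3, the catalytic subunit of the NCoR and SMRT complexes, had a log2 difference of 0.16 ± 0.07 that did not pass (adjusted p = 0.063). Hdac8 was at 64.6, 96 and 88.2 in control and at 126, 140 and 128 with combined loss, a rise of 0.59 ± 0.10 (adjusted p = 0.000101), which did not pass after quantile normalization (0.12, adjusted p = 0.243).

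The array medians were higher with combined loss (29.1 to 30.7) than in control (24.1 to 25.1), and the median log2 fold change over all genes was 0.16. Under quantile normalization that median was -0.06, and with each array centred on its median it was -0.10. The split of the calls into higher and lower moves with it. The shares of all genes given beside list counts below are those of the deposited scale. Quantile counts are added where the split differs. They are to be read against all genes under quantile normalization, 4125 higher and 4894 lower of 13382 tested, and not against those shares. Combined-loss replicate 2 stood apart on the cell cycle lists described below. The number of arrays per group, 3, limits the precision, and over all genes a log2 fold change had a median standard error of 0.0868.

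Combined loss changed 8766 of the 13382 genes tested (65.5%) at an adjusted p of 0.05: 6181 were higher (46.2%) and 2585 lower (19.3%). By 2-fold or more, 1688 genes rose (12.6%) and 552 fell (4.12%). Under quantile normalization 4125 genes were higher and 4894 lower, with 1122 and 899 of them by 2-fold or more, so rises outnumber falls among changes of 2-fold or more on either scale but not among all calls. The control and combined-loss arrays did not overlap for 9552 genes (71.4%). By 8-fold or more, 156 genes rose and 19 fell.

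The single interventions, which share the control arrays with this comparison, gave smaller changes. In Hdac1 KO cells 3240 genes passed (24.2%), 2617 higher (19.6%) and 623 lower (4.66%), 99 of them higher (0.74%) and 21 lower (0.157%) by 2-fold or more. In Hdac2 Kd cells 1417 genes passed (10.6%), 1010 higher (7.55%) and 407 lower (3.04%), with 80 higher (0.598%) and 48 lower (0.359%) by 2-fold or more. Combined-loss cells also differed directly from each of them, in 7604 genes (56.8%) from Hdac1 KO cells and in 8479 genes (63.4%) from Hdac2 Kd cells. The departure from an additive log2 effect of deletion and knockdown, tested as an interaction, passed for 5749 genes (43%), 3453 higher (25.8%) and 2296 lower (17.2%) than the sum of the single changes. Against +/+ cells with tamoxifen, 8267 genes passed (61.8%), 5124 higher (38.3%) and 3143 lower (23.5%), of which 1355 were higher (10.1%) and 573 lower (4.28%) by 2-fold or more. The +/+ cells themselves differed from control in 3811 genes (28.5%), 2883 higher (21.5%) and 928 lower (6.93%), 176 of them higher (1.32%) and 103 lower (0.77%) by 2-fold or more.

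**Figure D1:**
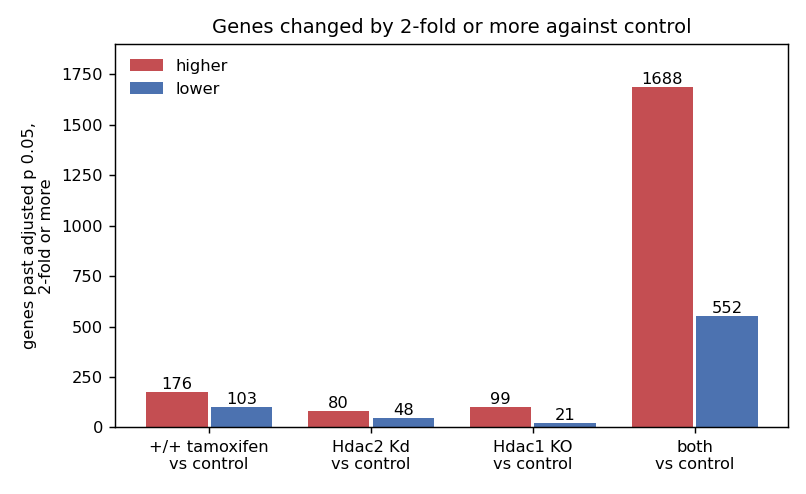
Numbers of genes past the threshold (limma, adjusted p under 0.05) by 2-fold or more, higher in red and lower in blue, for each of the 4 groups against control. Combined loss against control stands at 1688 higher and 552 lower, Hdac1 KO against control at 99 and 21, Hdac2 Kd against control at 80 and 48, and +/+ cells with tamoxifen at 176 and 103.

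The inhibitors of cyclin-dependent kinases, which hold cells out of S phase and mitosis, were mostly higher. Of the 8 tested, 7 rose and 1 fell (all genes: 46.2% and 19.3%), with a median log2 fold change of 0.82. By 2-fold or more, 4 rose and 1 fell (all genes: 12.6% and 4.12%). Under quantile normalization 5 rose and 1 fell. Cdkn1a (p21), a p53 target, was at 2786, 2920 and 2727 in control and at 11557, 11974 and 12487 with combined loss, a rise of 2.09 ± 0.08 (adjusted p = 2.44e-12). Its mean was 8308 in Hdac1 KO and 2646 in Hdac2 Kd cells. Cdkn1c (p57), encoded by an imprinted gene, was at 166, 135 and 146 in control and at 2663, 3069 and 2950 with combined loss, a rise of 4.14 ± 0.13 (adjusted p = 1.56e-13). Its means in Hdac1 KO and Hdac2 Kd cells were 176 and 242, and its rise against +/+ cells was 2.67. p57 thus stood far above control only where both enzymes were low among the fl/fl groups, and its interaction was 3.30 ± 0.18 (adjusted p = 9.5e-10).

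Cdkn2b (p15), an inhibitor of the cyclin D kinases, was at 124, 155 and 168 in control and at 1010, 658 and 909 with combined loss, a rise of 2.39 ± 0.15 (adjusted p = 4.51e-10). Cdkn2a, which encodes p16 and p19ARF, was at 50, 29.2 and 26 in control and at 51.3, 41.9 and 278 with combined loss. The groups overlap, the rise of 1.06 ± 0.44 (adjusted p = 0.0416) rests on combined-loss replicate 3, and without that array the difference was 0.32 (adjusted p = 0.281). The call was also lost without control replicate 2 (adjusted p = 0.0981) and without control replicate 3 (adjusted p = 0.116). Cdkn1b (p27) rose by 0.39, which did not pass under quantile normalization (0.14). Cdkn3, a phosphatase that peaks in mitosis despite its place on the list, was the member that fell, with a log2 fold change of -1.42.

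The pocket proteins, which bind E2F factors and repress their targets, moved in opposite directions. Rbl2 (p130), the pocket protein of resting cells, was at 995, 956 and 752 in control and at 3344, 3451 and 3482 with combined loss (1.92 ± 0.10). Rb1 rose by 1.36 ± 0.09. Rbl1 (p107), which is itself transcribed in cycling cells, was at 1491, 1525 and 1455 in control and at 160, 186 and 156 with combined loss (-3.04 ± 0.07, adjusted p = 6.42e-15). The arrays of the groups lie wide apart for all 3 genes. Among the other G1 genes, cyclin D2 (Ccnd2) rose by 1.11, cyclin E2 (Ccne2) fell by 1.95 and the repressor E2f7 fell by 2.67 on the log2 scale. Of the 21 genes of this G1 list 8 rose and 9 fell (all genes: 46.2% and 19.3%), or 6 and 11 under quantile normalization, with a median of -0.09.

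Genes of mitosis and of DNA replication fell as groups. All 53 mitosis and G2 genes tested, of 54 listed, fell (all genes: 19.3%), 51 of them by 2-fold or more, with a median log2 fold change of -2.23. Of the 48 replication genes tested, of 50 listed, 47 fell and none rose, 41 by 2-fold or more, with a median of -1.64, and under quantile normalization all 48 fell. In each single intervention the medians were nearer zero: -0.43 for mitosis and -0.38 for replication in Hdac1 KO cells, and -0.07 for each list in Hdac2 Kd cells. Against +/+ cells with tamoxifen the medians of combined loss were -2.08 for mitosis and -1.26 for replication. In bulk RNA of a culture a smaller share of dividing cells and less of these transcripts per cell cannot be told apart.

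Per array, the mean log2 level of the mitosis genes was 11.19 to 11.27 in control and 8.83, 9.52 and 8.75 on combined-loss replicates 1, 2 and 3. The replication genes averaged 11.01 to 11.09 in control and 9.35, 9.74 and 9.29 with combined loss. Replicate 2 therefore kept more of both programs than its partners while remaining below every control array. Without it the medians became -2.51 for mitosis and -1.71 for replication, with all 53 and 47 genes still lower. Without it 5736 genes were higher and 2649 lower in all.

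Promoter windows of these lists were searched for motifs already known from cell cycle genes. High motif shares in lists of such genes do not depend on the values of these arrays. The CHR (TTTGAA) and CCAAT elements are the textbook pair bound by the DREAM and MMB complexes and by NF-Y at mitotic genes, while E2F elements, searched here as TTCCCGC or TTGGCGC, mark genes of the G1/S transition. The 250 bases before the annotated start of 3 mitosis genes follow, from RefSeq on GRCm38.p6, read on the gene's strand, 5′ to 3′, with every CHR or CCAAT match on either strand in capitals. They are the windows of Ncapg, a condensin subunit, Mki67, the proliferation antigen Ki-67, and Ccnf, cyclin F. Members were taken in order of fold change and skipped where these 250 bases lacked either motif. The windows printed below for E2F and the E-box were picked in the same way. The printed windows therefore do not show how common the motifs are.
Ncapg: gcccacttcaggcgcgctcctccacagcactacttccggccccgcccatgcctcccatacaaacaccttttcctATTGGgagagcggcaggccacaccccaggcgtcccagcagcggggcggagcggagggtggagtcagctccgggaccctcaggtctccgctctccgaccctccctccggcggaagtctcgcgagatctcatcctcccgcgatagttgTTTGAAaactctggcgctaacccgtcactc
Mki67: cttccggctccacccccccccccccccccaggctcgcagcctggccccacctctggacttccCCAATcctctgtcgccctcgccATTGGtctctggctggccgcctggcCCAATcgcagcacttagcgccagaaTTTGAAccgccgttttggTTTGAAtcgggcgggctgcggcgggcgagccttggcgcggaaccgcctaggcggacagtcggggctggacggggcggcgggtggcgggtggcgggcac
Ccnf: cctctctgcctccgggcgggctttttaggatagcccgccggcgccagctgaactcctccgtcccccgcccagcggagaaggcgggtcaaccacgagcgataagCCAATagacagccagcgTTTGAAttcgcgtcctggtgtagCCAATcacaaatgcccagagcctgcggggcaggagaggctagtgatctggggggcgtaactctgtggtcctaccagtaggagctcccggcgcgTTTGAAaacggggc
The Ncapg window is chr5:45669675-45669924 (+), that of Mki67 chr7:135716380-135716629 (-) and that of Ccnf chr17:24251410-24251659 (-). In Ncapg the CHR match begins 30 bases before the start and a CCAAT match on the reverse strand (ATTGG) 176 bases before it.

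Ncapg signal was 1734, 1580 and 1672 on the control arrays and 139, 352 and 125 with combined loss, a log2 fold change of -3.07 ± 0.24. Mki67 was at 7318, 6884 and 7832 in control and at 1127, 2244 and 751 with combined loss, a log2 fold change of -2.55 ± 0.25. Ccnf was at 692, 600 and 608 in control and at 88.5, 142 and 80.9 with combined loss, a log2 fold change of -2.47 ± 0.15. In each of these genes the groups are well separated and replicate 2 is the highest of the combined-loss arrays. Cyclin A2 (Ccna2), needed for S phase and entry into mitosis, went from 5517, 4800 and 4576 to 893, 1384 and 766 (-2.31 ± 0.15).

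E2F matches are in capitals in the same windows of 3 replication genes: Cdc6, which loads the replicative helicase, Mcm5, a subunit of that helicase, and Pola1, the catalytic subunit of DNA polymerase alpha.
Cdc6: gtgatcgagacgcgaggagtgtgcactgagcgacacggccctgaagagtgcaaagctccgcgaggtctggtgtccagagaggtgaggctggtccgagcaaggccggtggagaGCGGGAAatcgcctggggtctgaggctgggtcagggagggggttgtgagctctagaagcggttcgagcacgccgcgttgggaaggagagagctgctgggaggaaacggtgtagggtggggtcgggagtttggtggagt
Mcm5: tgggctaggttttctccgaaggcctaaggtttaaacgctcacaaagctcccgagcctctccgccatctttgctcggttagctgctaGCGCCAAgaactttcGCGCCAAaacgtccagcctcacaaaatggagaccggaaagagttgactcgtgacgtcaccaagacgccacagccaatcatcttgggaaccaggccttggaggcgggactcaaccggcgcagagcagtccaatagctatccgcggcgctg
Pola1: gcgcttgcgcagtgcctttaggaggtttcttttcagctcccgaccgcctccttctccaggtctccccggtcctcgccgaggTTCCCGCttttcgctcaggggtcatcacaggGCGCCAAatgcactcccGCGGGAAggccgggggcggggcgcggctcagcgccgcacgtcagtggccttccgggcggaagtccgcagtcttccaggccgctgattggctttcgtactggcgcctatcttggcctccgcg
The windows are chr11:98907901-98908150 (+) for Cdc6, chr8:75109259-75109508 (+) for Mcm5 and chrX:93632156-93632405 (-) for Pola1. Cdc6 signal went from 1724, 1913 and 1923 in control to 269, 496 and 164 with combined loss (-2.65 ± 0.24). Mcm5 went from 15116, 14751 and 14946 to 2659, 4040 and 2416 (-2.33 ± 0.14). Pola1 went from 1653, 1664 and 1516 to 335, 363 and 340 (-2.17 ± 0.08), with arrays that lie close together within each group.

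Counted over the 300-base windows from 250 before to 50 after the start, on both strands, CHR stood in 32 of 43 mitosis windows (74.4%) and in 12% of all 10734 genes with a window. CHR and CCAAT together stood in 27 of the 43 (62.8%), against 4.88% of all. E2F stood in 20 of 41 replication windows (48.8%) and in 10 of 19 DNA repair windows (52.6%), against 12% of all. Among genes lower by 2-fold or more, 27.4% of windows held E2F and 16.2% held CHR with CCAAT, and among those outside the replication, mitosis and repair lists 26.1% and 12.4% did. The lists do not hold every cell cycle gene: Cdca2, a mitotic phosphatase regulator (-3.08), is on none of them. The genes outside the lists are therefore not free of cell cycle genes. Of the windows of genes higher by 2-fold or more, 9.38% held E2F and 3.30% held CHR with CCAAT. A match describes the letters of these windows and is not a measured binding site.

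**Figure D2:**
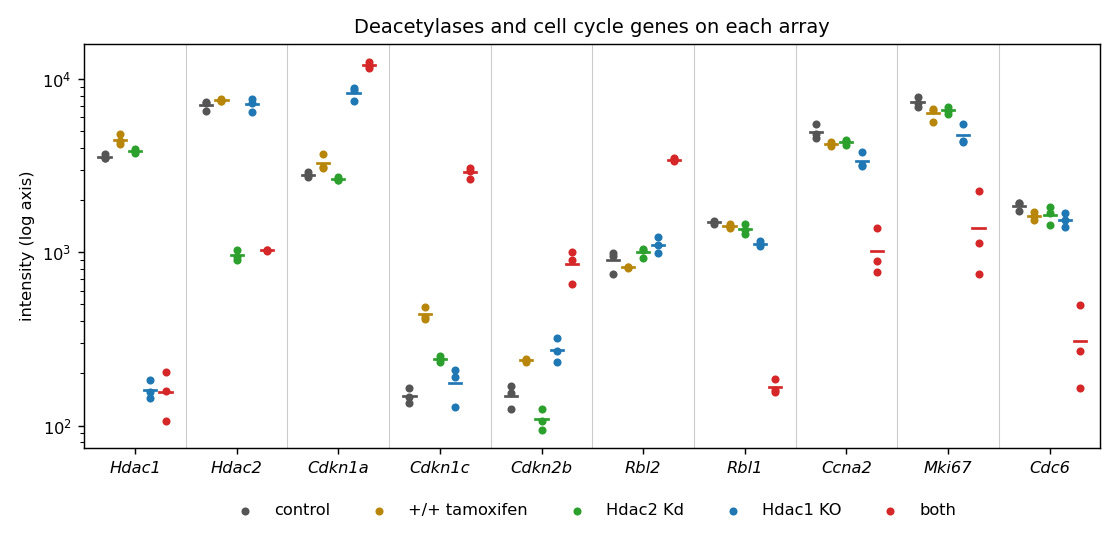
Deposited intensity on a log axis for each of the 15 arrays by group, for Hdac1, Hdac2 and 8 cell cycle genes, with 1 point per array and a bar at each group mean. Combined-loss arrays lie above control for Cdkn1a, Cdkn1c, Cdkn2b and Rbl2 and below it for Rbl1, Ccna2, Mki67 and Cdc6, where combined-loss replicate 2 is the highest of its group.

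**Figure D3:**
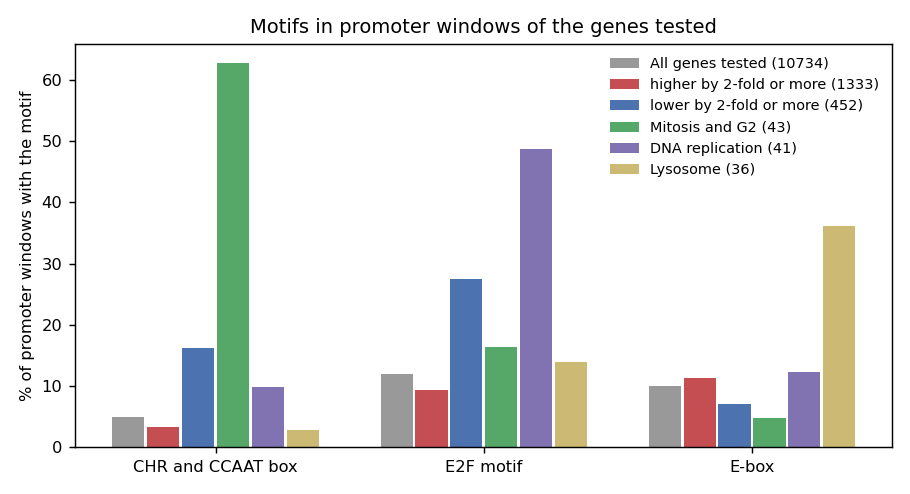
Share of promoter windows, in percent, that hold each motif, for all genes tested, for genes higher or lower by 2-fold or more with combined loss, and for the mitosis, replication and lysosome lists. CHR with CCAAT reaches 62.8% of the mitosis windows, against 4.88% of all. E2F reaches 48.8% of the replication windows and the E-box 36.1% of the lysosome windows, against 12% and 9.89% of all.

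DNA repair genes followed the replication genes. Of the 24 tested, of 29 listed, 18 fell (all genes: 19.3%) and none rose, 15 by 2-fold or more, with a median of -1.33. Under quantile normalization all 24 fell. The checkpoint kinase Chek1 went from 561, 676 and 577 in control to 103, 122 and 92.7 with combined loss (-2.35 ± 0.11). As the mean of its probe sets the Chek1 change was -1.40.

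Targets of p53, which arrest the cell cycle or promote cell death, were mostly higher. Of the 34 tested, of 35 listed, 28 rose (all genes: 46.2%) and 2, Gtse1 and Sertad1, fell, 19 rises being of 2-fold or more, with a median of 1.09 (25 and 4 under quantile normalization). Gtse1 did not pass against +/+ cells (0.16, adjusted p = 0.352). In Hdac1 KO cells 27 of them rose (all genes: 19.6%), with a median of 0.63, and against +/+ cells the combined-loss median was 1.18. Mdm2, the ubiquitin ligase that degrades p53, was at 1051, 1058 and 973 in control and at 4986, 5204 and 5014 with combined loss (2.29 ± 0.07, adjusted p = 9.79e-14). Its mean was 2757 in Hdac1 KO and 965 in Hdac2 Kd cells. Ccng1, cyclin G1, rose from 10967, 12232 and 10958 to 29936, 30213 and 30903 (1.42 ± 0.08). Perp, a membrane protein of desmosomes and of p53-dependent death, rose from 1657, 1666 and 1590 to 5611, 5378 and 6146 (1.79 ± 0.08), and by 3.69 against +/+ cells, where its mean was 426. The BCL2 family and caspases did not follow as a group: of 25 tested, 11 rose and 6 fell, or 8 and 9 under quantile normalization, with a median of 0.14.

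Lysosomal genes rose as a group. All 42 tested, of 49 listed, rose (all genes: 46.2%), 31 by 2-fold or more, with a median log2 fold change of 1.26. Under quantile normalization 40 rose and none fell. In Hdac1 KO cells 35 rose (all genes: 19.6%) with a median of 0.42. In Hdac2 Kd cells 4 rose and 1 fell (all genes: 7.55% and 3.04%) with a median of 0.11. The +/+ cells with tamoxifen themselves had 25 higher and 1 lower than control (all genes: 21.5% and 6.93%), with a median of 0.265. Against +/+ cells 40 were higher with combined loss (all genes: 38.3%), with a median of 0.98. The mean log2 level of the list was 10.24 to 10.29 on the control arrays and 11.60 to 11.67 on the combined-loss arrays. Many lysosomal promoters carry an E-box-like element for TFEB and related factors. CACGTG, its core, stood in 13 of 36 lysosome windows (36.1%) against 9.89% of all. Among genes higher by 2-fold or more 11.3% of windows held it, and among those outside the lysosome list 10.6%, both near the share of all. CACGTG is in capitals in the windows of 3 members picked because they hold it, the cathepsins F and D and acid alpha-glucosidase, Gaa.
Ctsf: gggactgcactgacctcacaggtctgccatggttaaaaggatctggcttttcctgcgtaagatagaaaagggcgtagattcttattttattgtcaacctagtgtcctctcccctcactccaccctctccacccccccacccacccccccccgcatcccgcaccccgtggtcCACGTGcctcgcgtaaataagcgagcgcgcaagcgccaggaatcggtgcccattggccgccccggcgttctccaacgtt
Gaa: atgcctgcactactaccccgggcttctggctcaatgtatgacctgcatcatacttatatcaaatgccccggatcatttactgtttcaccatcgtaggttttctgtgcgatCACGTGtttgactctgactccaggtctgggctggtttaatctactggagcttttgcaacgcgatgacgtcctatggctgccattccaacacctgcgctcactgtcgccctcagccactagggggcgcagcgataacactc
Ctsd: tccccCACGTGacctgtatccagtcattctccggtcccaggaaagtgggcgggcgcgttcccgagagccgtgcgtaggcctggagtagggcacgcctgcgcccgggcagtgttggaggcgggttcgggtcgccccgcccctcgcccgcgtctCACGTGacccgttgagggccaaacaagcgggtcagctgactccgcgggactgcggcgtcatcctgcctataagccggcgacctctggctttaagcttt
These are chr19:4854915-4855164 (+) for Ctsf, chr11:119267713-119267962 (+) for Gaa and chr7:142387828-142388077 (-) for Ctsd. Ctsf was at 15.2, 16.3 and 13.1 in control, near the bottom of the scale, and at 203, 176 and 331 with combined loss (2.98 ± 0.15). Gaa rose from 1506, 1513 and 1612 to 6361, 5722 and 6705 (2.01 ± 0.09). Ctsd rose from 3090, 3206 and 3024 to 11504, 10452 and 12169 (1.86 ± 0.09), with a mean of 5497 in Hdac1 KO and 4545 in +/+ cells. Lamp1, a major protein of the lysosomal membrane, rose from 10074, 9821 and 9755 to 20323, 19808 and 20836 (1.04 ± 0.06). In none of these 4 genes do the groups overlap, as in 71.4% of all genes. Of 24 autophagy genes 22 rose and 1, Atg10, fell, with 2 rises of 2-fold or more (Gabarapl2, 1.76, and Map1lc3b, 1.27; median 0.53), and under quantile normalization 15 rose and 2 fell. Against +/+ cells the autophagy median was 0.34.

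The genes with the highest fold changes had low signal on every control array and high signal on every combined-loss array. Bex1, a small brain-expressed protein encoded on the X chromosome, was at 16, 26.4 and 21.3 in control and at 19669, 13582 and 19218 with combined loss (8.87 ± 0.16, adjusted p = 1.98e-16). Its means were 26.8 in Hdac1 KO, 46.9 in Hdac2 Kd and 33.1 in +/+ cells, so the high signal was on the combined-loss arrays alone. Igf2, the imprinted insulin-like growth factor 2, was at 71.2, 47.5 and 45 in control and at 21069, 17009 and 19176 with combined loss (8.09 ± 0.18). Igf2 was already raised in +/+ cells with tamoxifen (mean 701), against which the difference was 4.77, and as the mean of its probe sets the rise was 4.76. Mgst1, a microsomal glutathione transferase, went from 16, 15 and 15.6 to 4545, 4480 and 4385 (7.15 ± 0.09). Its mean was 36.5 in Hdac1 KO and 472 in +/+ cells, and it rose by 3.21 against the latter.

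Dcn, the collagen-binding proteoglycan decorin, went from 25.1, 19.9 and 22.3 to 4297, 3600 and 4041 (6.70 ± 0.12). Knockdown alone brought Dcn to a mean of 298, the Hdac1 KO mean was 37.3, and the interaction was 3.21 ± 0.17. Cox6b2, a testis form of a cytochrome oxidase subunit, showed the other order: it went from 81.4, 70.4 and 58.9 to 7743, 8029 and 8239 (6.55 ± 0.14), with means of 350 in Hdac1 KO and 62.2 in Hdac2 Kd cells. Itih5, a hyaluronan-binding protein of the inter-alpha-trypsin inhibitor family, went from 18, 22.3 and 17.8 to 2331, 1845 and 2358 (5.95 ± 0.11). Notch3, a Notch receptor of mural cells, went from 24.9, 32.4 and 20.2 to 1785, 2069 and 2029 (5.57 ± 0.12), and its mean in Hdac1 KO cells was 87.6. Gpx3, the secreted glutathione peroxidase, went from 39.1, 38.1 and 34.1 to 2927, 2640 and 3116 (5.77 ± 0.10). The single interventions differed in these members: Dcn passed as higher in both, Cox6b2 and Notch3 in Hdac1 KO cells, and Itih5 and Gpx3 in neither. In all 5 the combined-loss arrays lie far above every other group.

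**Figure D4:**
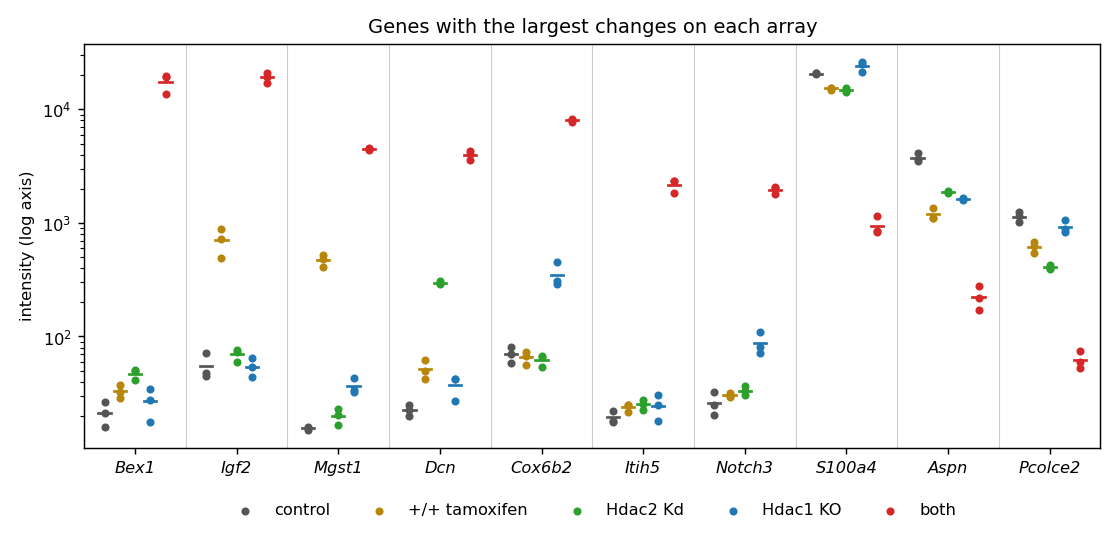
Deposited intensity on a log axis for each of the 15 arrays by group, for genes among the highest and lowest with combined loss, with 1 point per array and a bar at each group mean. The combined-loss means are 17489 for Bex1, 19084 for Igf2 and 948 for S100a4, against 21.2, 54.5 and 20642 in control.

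Some genes that rose were near background in control. Of the 13382 genes, 525 lay under their array's 40th percentile on all 3 control arrays and were tested because they exceeded it on at least 3 arrays of other groups. This filter in part fixes how many of them are higher, so their number (all genes: 46.2% higher) is a description only. The same holds for members of the gene lists that are among them. Of those, 270 passed as higher and lay above that percentile on all 3 combined-loss arrays, 109 of them by 2-fold or more. On every Hdac1 KO and Hdac2 Kd array, 128 of the 270 also lay under the percentile, and 118 did so on the +/+ arrays as well. Because 16 is added before the logarithm, fold changes of such dim genes are understated. Col14a1, a fibril-associated collagen, went from 13.5, 13.5 and 14.3 in control to 1162, 1477 and 1322 with combined loss, and its means were 13.3 in Hdac1 KO and 19.4 in Hdac2 Kd cells. The Col14a1 rise was 5.48 on the log2 scale and 3.06 as the mean of its probe sets. Apoe, a lipid carrier made by macrophages and hepatocytes, went from 11.3, 10.2 and 11.7 to 551, 396 and 537. S100g, a vitamin D dependent calcium-binding protein, went from 15.3, 14.8 and 18.3 to 484, 635 and 467, with means of 15.6, 18.3 and 16.4 in Hdac1 KO, Hdac2 Kd and +/+ cells. Krt20, an intestinal keratin, went from 17.2, 15.5 and 13.7 to 590, 494 and 635. The chemokine Cxcl14 differed from these: it went from 14.4, 16.7 and 13.3 to 293, 305 and 378, but the +/+ mean was 2159, so combined loss stood below +/+ cells, at a log2 difference of -2.68.

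Outside Hdac1 and the cell cycle, the genes with the lowest fold changes had varied roles. S100a4, a calcium-binding protein of motile fibroblasts, was at 20340, 20848 and 20738 in control and at 849, 1156 and 839 with combined loss (-4.44 ± 0.10, adjusted p = 5.39e-15). Its means were 24196 in Hdac1 KO and 14824 in Hdac2 Kd cells. Aspn, asporin, a small proteoglycan that restrains TGF-beta, went from 4104, 3634 and 3538 to 218, 170 and 280 (-4.01 ± 0.13), with intermediate means of 1620 in Hdac1 KO, 1879 in Hdac2 Kd and 1186 in +/+ cells. The Aspn change against +/+ cells was -2.35. Pcolce2, an enhancer of procollagen processing, went from 1140, 1255 and 1010 to 52.5, 74.9 and 59.5 (-3.88 ± 0.12). Styk1, a receptor-like kinase, went from 849, 820 and 863 to 86.7, 63.9 and 68.8 (-3.28 ± 0.09). Nqo1, a quinone reductase and NRF2 target, went from 1139, 1222 and 1027 to 75.7, 154 and 139 (-3.09 ± 0.18), but it was also low in +/+ cells (mean 225), against which the log2 difference was -0.83. These genes were picked from those whose control and combined-loss arrays do not overlap (71.4% of all genes), so the gap between their groups is no separate result.

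Among the partners of HDAC1 and HDAC2, subunits of the SIN3, NuRD and CoREST complexes, 18 of 32 tested rose and 5 fell (median 0.29). These counts are near the shares of all genes, 46.2% higher and 19.3% lower, which also apply to the other lists of this paragraph. Under quantile normalization 11 rose and 13 fell. Against +/+ cells the median was 0.105. None rose by 2-fold, and Chd3, an ATPase of NuRD, fell by 1.32 on the log2 scale. Sin3b, a scaffold of the SIN3 complex, rose from 3555, 3545 and 3471 to 5460, 6197 and 5621 (0.70 ± 0.07; 0.46 under quantile normalization). Of 14 class II, class IV and sirtuin deacetylases 6 rose and 5 fell, or 5 and 8 under quantile normalization. Hdac11, the class IV enzyme, rose from 21.7, 29.6 and 22.9 to 114, 123 and 136 (1.79 ± 0.12). Of 13 histone acetyltransferases 3 rose and 5 fell (3 and 8 under quantile normalization), and Kat2b (PCAF) rose from 1104, 1097 and 1064 to 2646, 2545 and 2510 (1.23 ± 0.06; 0.81 without the probe sets that may read related sequences). DNA methylation and Polycomb genes numbered 5 higher and 7 lower of 18, or 4 and 12 under quantile normalization. Among the risers were Tet1 (1.64) and Dnmt3a (1.06), on the log2 scale. Uhrf1, which guides maintenance methylation in S phase, fell from 5519, 5979 and 5664 to 1056, 1565 and 1036 (-2.24 ± 0.12), Dnmt1 fell by 1.42 on the log2 scale and Ezh2, the Polycomb methyltransferase, fell by 1.17.

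Growth factor and imprinted genes were mostly higher (all genes: 46.2% higher and 19.3% lower). Of 17 tested genes of the insulin-like growth factor axis 14 rose and 1, Igfbp6, fell (median 1.01), and of 24 imprinted genes 20 rose and 1, Sgce, fell (median 0.67). Under quantile normalization the counts were 12 and 1, and 15 and 2. Of the imprinted genes 14 were also higher in +/+ cells with tamoxifen than in control (all genes: 21.5%). Against those cells 13 were higher and 2 lower with combined loss (all genes: 38.3% and 23.5%), with a median of 0.27. Igfbp6 was higher (0.82) against +/+ cells, and Sgce did not pass (0.04, adjusted p = 0.693). Igf1, the other ligand of the axis, went from 22.7, 36.3 and 33.7 to 1239, 384 and 809 (4.0 ± 0.29), the combined-loss arrays being spread but all above control. Igf2r, the receptor that clears IGF2 and carries enzymes to lysosomes, rose from 1809, 1861 and 1730 to 6866, 6073 and 6685 (1.85 ± 0.08; 1.19 against +/+ cells). Igfbp4, a binding protein of both ligands, rose from 2571, 2438 and 2310 to 8607, 9626 and 8593 (1.87 ± 0.09). Dlk1, an imprinted inhibitor of fat cell formation, had opposite values in single and combined loss: its means were 4256 in control, 3131 in Hdac1 KO, 1206 in Hdac2 Kd and 8981 with combined loss. Dlk1 fell in each single intervention and rose in the combination by 1.07 ± 0.08, with an interaction of 3.33 ± 0.11 (adjusted p = 1.6e-12).

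More Wnt and TGF-beta pathway genes rose than fell, as did all genes (46.2% higher and 19.3% lower). Of 32 Wnt pathway genes 23 rose and 1, Lrp5, fell, with a median of 0.47 (16 and 4 under quantile normalization). Lrp5 lost its call without control replicate 1 (adjusted p = 0.152), combined-loss replicate 1 (0.0587) or combined-loss replicate 3 (0.0526). Its call was also lost with the 2 groups alone (adjusted p = 0.0575) and against +/+ cells (-0.17, adjusted p = 0.231), but held under quantile normalization (-0.52). Of 32 TGF-beta and BMP genes 23 rose and 6 fell, with a median of 0.77 (21 and 7 under quantile normalization). Of 18 Notch genes 10 rose and 2 fell (4 and 2 under quantile normalization), with a median of 0.24, and -0.03 with centred arrays. Sfrp1, a secreted inhibitor that binds Wnt ligands, went from 41.7, 39.2 and 36.4 to 2486, 1740 and 2304 (5.30 ± 0.15). The Sfrp1 mean was 531 in +/+ cells, against which the rise was 2.01, and as the mean of its probe sets the rise was 3.19. Wnt5b, a ligand of the non-canonical branch, went from 44.8, 50.5 and 46.5 to 529, 491 and 552, with a mean of 202 in Hdac2 Kd cells (3.09 ± 0.08; 1.75 against +/+ cells). Bmp4, a BMP ligand, went from 334, 326 and 371 to 5396, 3286 and 4038 (3.54 ± 0.13), with means of 549 in Hdac1 KO and 738 in Hdac2 Kd cells. Fst, follistatin, which binds activins, went from 3191, 3322 and 3385 to 11397, 11035 and 11524 (1.77 ± 0.08). Ligands and inhibitors of the same pathways were thus among the risers. The arrays of the groups did not overlap for Sfrp1, Wnt5b, Bmp4 and Fst, as in 71.4% of all genes.

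Of 14 tested VEGF and angiogenic factors and receptors 9 rose and 2 fell, with a median of 0.62 (all genes: 46.2% and 19.3%). Under quantile normalization 8 rose and 3 fell. Flt4, the VEGF-C receptor, went from 138, 110 and 141 to 1302, 1336 and 1223 (3.17 ± 0.15; 1.85 against +/+ cells). Flt1 went from 178, 208 and 196 to 876, 773 and 700 (1.93 ± 0.14). The ligand Vegfa did not pass (0.14 ± 0.08, adjusted p = 0.148).

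Matrix genes changed in both directions, read against 46.2% higher and 19.3% lower among all genes. Of 25 collagens 17 rose and 3 fell, 11 and 2 by 2-fold or more (14 and 6 under quantile normalization; median 0.48). Of 35 proteoglycans, elastic fibre and other matrix genes 29 rose and 2 fell (25 and 5; median 0.61, and 0.33 against +/+ cells), and of 21 matrix proteases and inhibitors 12 rose and 5 fell (10 and 7; median 0.31). Col3a1, type III collagen, was at 16612, 15471 and 14792 in control and at 29315, 31527 and 28839 with combined loss (0.94 ± 0.07), while its means were 10541 in Hdac1 KO and 22226 in Hdac2 Kd cells. The Col3a1 rise was 1.42 as the mean of its probe sets. Col6a2, a chain of the microfibrillar type VI collagen, fell from 7517, 7134 and 6917 to 2876, 3257 and 2591 (-1.31 ± 0.09; -0.83 against +/+ cells). Postn, periostin, rose from 14169, 10868 and 11273 to 27144, 31442 and 29683 (1.29 ± 0.10), and by 2.67 against +/+ cells. Mmp2, gelatinase A, rose from 10332, 10169 and 9702 to 24079, 24176 and 23925 (1.26 ± 0.06). Plaur, the urokinase receptor, fell from 1850, 2245 and 2495 to 538, 531 and 718 (-1.86 ± 0.13; -2.81 against +/+ cells).

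Genes of adhesion gave 17 rises and 6 falls among 32, with a median of 0.27 (all genes: 46.2% higher and 19.3% lower). Under quantile normalization 12 rose and 10 fell. Cdh13, a cadherin anchored by lipid, went from 98.9, 85.8 and 96.8 to 1243, 1277 and 1145 (3.49 ± 0.14). Itga8, the nephronectin-binding integrin chain, went from 302, 361 and 371 to 3260, 2096 and 3789 (3.05 ± 0.16; 1.39 against +/+ cells).

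Genes of MHC class I presentation and of the interferon response were higher in part (all genes: 46.2% higher and 19.3% lower). Of 26 tested, of 36 listed, 19 rose and 3 fell, 14 and 2 by 2-fold or more, with a median of 1.08 (17 and 5 under quantile normalization). Against +/+ cells 19 were higher and 5 lower (all genes: 38.3% and 23.5%) with a median of 0.84. Psmb8, the immunoproteasome subunit LMP7, went from 49.6, 51.9 and 48.7 to 981, 1165 and 878 (3.94 ± 0.10). The Psmb8 rise was 2.16 as the mean of its probe sets and 2.44 against +/+ cells. Tap1, a peptide transporter, went from 20.1, 26 and 35.3 to 373, 348 and 401 (3.19 ± 0.13; 1.87 as the mean of its probe sets). H2-D1, a class I heavy chain, went from 1777, 1867 and 1880 to 9653, 9106 and 9177 (2.33 ± 0.07; 1.54 against +/+ cells and 1.30 as the mean of its probe sets), and since class I heavy chains are near-identical its probes may read several of them. B2m, their light chain, went from 14830, 15147 and 15103 to 28325, 29025 and 29778 (0.95 ± 0.06; 0.56 against +/+ cells). Ifi202b, an interferon-inducible gene, fell from 3647, 3571 and 3596 to 232, 497 and 211 (-3.56 ± 0.20).

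Chemokines and cytokines were split: of 26 tested 10 rose and 7 fell (all genes: 46.2% and 19.3%), or 9 and 10 under quantile normalization. Cxcl3, a neutrophil attractant, had means of 21.6 in control, 21.5 in Hdac1 KO, 500 in Hdac2 Kd and 43.6 with combined loss. Cxcl3 rose with combined loss (0.66, adjusted p = 2.71e-05; 0.33 under quantile normalization and 0.39 with centred arrays), but by much less than with knockdown alone, and the interaction was -3.10 ± 0.14 (adjusted p = 1.4e-10). Cxcl1, of the same family, fell from 3173, 2554 and 2587 to 520, 874 and 514 (-2.13 ± 0.23), and with a mean of 251 in +/+ cells it was higher than them by 1.33.

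Of 32 tested neuronal genes, of 43 listed, 29 rose (all genes: 46.2%) and none fell, 10 by 2-fold or more (median 0.59). Under quantile normalization 18 rose and none fell (all genes: 4125 higher and 4894 lower of 13382). With each array centred on its median 20 rose and 3 fell (all genes: 3997 higher and 5526 lower). Uchl1, a neuronal ubiquitin hydrolase, went from 112, 112 and 113 to 1504, 1646 and 1521 (3.61 ± 0.12; 1.53 against +/+ cells). Of the 7 Bex and Tceal family genes tested, of 11 listed, all rose, 4 by 2-fold or more (median 1.08). A member near background elsewhere, such as Bex4 (control mean 13.8), is tested only if its combined-loss arrays are high. The count is thus in part fixed by the filter. Bex2 went from 21.7, 21.9 and 20.1 to 1772, 1672 and 1746 (5.55 ± 0.07), with means of 22.1, 24.4 and 27.0 in Hdac1 KO, Hdac2 Kd and +/+ cells. Bex1 and Bex2 are close paralogs, so their probe sets may share signal. Of 14 germline genes tested, of 37 listed, 5 rose and 1 fell (4 and 5 under quantile normalization).

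Metabolic and stress lists differed from each other, read against 46.2% higher and 19.3% lower among all genes. Of 27 genes of cholesterol and fatty acid synthesis 19 fell and 4 rose, 5 falls being of 2-fold or more (median -0.45; 22 fell and 1 rose under quantile normalization). In Hdac1 KO cells 13 of them rose (all genes: 19.6%) and in +/+ cells with tamoxifen 20 rose (all genes: 21.5%), none falling in either. In Hdac2 Kd cells 9 fell (all genes: 3.04%). Against +/+ cells 23 were lower with combined loss (all genes: 23.5%), with a median of -0.90. Sqle, squalene epoxidase, fell from 6822, 6995 and 6722 to 3968, 4679 and 4227 (-0.68 ± 0.08). Genes of the ATF4 and unfolded protein responses gave 10 rises and 14 falls of 27 (5 and 16 under quantile normalization), and Asns, asparagine synthetase, fell from 14804, 15500 and 14862 to 7530, 8890 and 7670 (-0.91 ± 0.08). Of 28 NRF2 and glutathione genes 12 rose and 9 fell (9 and 13 under quantile normalization).

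Immediate early genes gave 20 rises and 2 falls of 25, with a median of 0.63 (15 and 3 under quantile normalization). They gave 18 rises in Hdac1 KO (all genes: 19.6%), 11 in Hdac2 Kd (7.55%) and 15 in +/+ cells (21.5%). Against +/+ cells the combined-loss median was 0.31. Egr2 went from 227, 250 and 257 to 610, 953 and 775 (1.59 ± 0.13; 0.48 against +/+ cells). Genes known to be raised by deacetylase inhibitors in other cells gave 10 rises and 3 falls of 15 (9 and 5 under quantile normalization; median 0.89, and 1.57 against +/+ cells), among them Clu, clusterin, from 64.1, 59.1 and 72.3 to 564, 353 and 447 (2.51 ± 0.15; 1.39 without the probe sets that may read related sequences). Of 27 contractile and actin genes 21 rose and 2 fell (14 and 5 under quantile normalization; median 0.37, and 0.18 against +/+ cells), and Cnn1, calponin, rose from 7123, 7609 and 7032 to 13283, 12875 and 14936 (0.91 ± 0.07). For each list here the combined-loss shares of all genes were 46.2% higher and 19.3% lower on the deposited scale. Under quantile normalization 4125 genes were higher and 4894 lower of 13382. Of 17 adipogenic genes 11 rose and 5 fell (9 and 6 under quantile normalization). Their regulator Pparg fell from 303, 356 and 319 to 57.4, 52.5 and 38 (-2.40 ± 0.17), with a mean of 82.1 in Hdac2 Kd cells. Lpl, lipoprotein lipase, rose from 43.7, 31.7 and 29.3 to 1144, 1288 and 1674 (4.76 ± 0.14), so the regulator and this target gene moved apart. Of 17 ribosomal protein genes 12 rose and none fell, by less than 2-fold in each, with a median of 0.17 close to that of all genes, and under quantile normalization 1 rose and 4 fell.

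**Figure D5:**
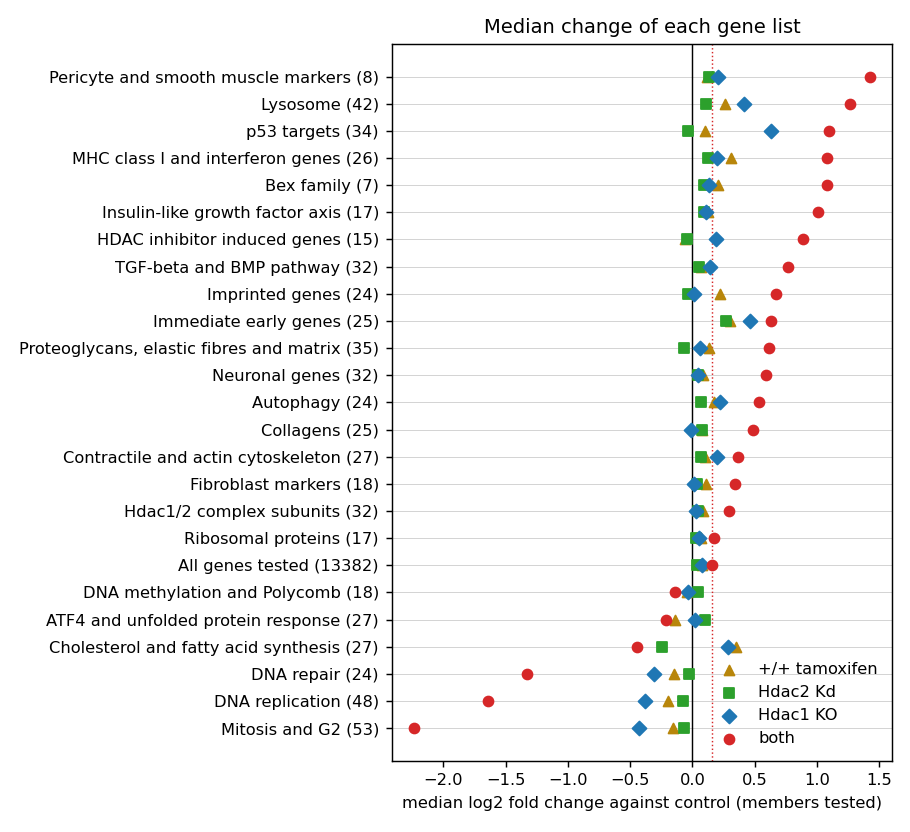
Median log2 fold change against control over the tested members of each list (number tested in parentheses) for the 4 groups, with a dotted line at the combined-loss median over all genes, 0.16. The combined-loss medians run from 1.42 for pericyte and smooth muscle markers and 1.26 for the lysosome list to -2.23 for mitosis, against 0.20, 0.42 and -0.43 for the same lists in Hdac1 KO cells.

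The fibroblast label was checked against its markers and against those of other cells. Of the 18 fibroblast markers tested 16 lay above the 40th percentile on all control arrays and 18 on all combined-loss arrays, with a summed intensity of 221057 to 229606 and of 253909 to 270649. Of the 18, 11 rose and 3 fell (all genes: 46.2% and 19.3%), or 7 and 6 under quantile normalization. Macrophage markers summed to 396 to 424 in control and 401 to 581 with combined loss over 7 genes, and endothelial markers to 158 to 177 and 318 to 391 over 3 genes. Of the macrophage markers 1, Cd68, rose, which did not pass under quantile normalization (0.19, adjusted p = 0.323) or against +/+ cells (0.40, adjusted p = 0.0514), and all 3 endothelial markers rose (2 under quantile normalization). Sums of different lists are not compared, since they come from different probes. Pericyte and smooth muscle markers summed to 2385 to 2853 in control and 7238 to 7962 with combined loss over 8 genes, 7 of which rose and 1 of which fell, with Notch3 among the risers. Epithelial markers summed to 2200 to 2320 and 6632 to 7217 over 10 genes, mostly through Perp and through the desmosomal protein Dsp, which went from 13.8, 20.9 and 15.3 to 657, 658 and 582. Of the 10, 3 rose and 2, Krt19 (-0.58) and Epcam (-0.37), fell, with a median of 0.05 (3 and 3 under quantile normalization, with Krt19 at -0.89 and Epcam at -0.76). Against +/+ cells Krt19 was at -1.26 and Epcam at -0.02. The epithelial keratin Krt8 stayed near background on all arrays of both groups (17.6 to 23.7). Skeletal muscle markers summed to 1975 to 2374 in control and 510 to 700 with combined loss over 7 genes, and pluripotency markers to 5658 to 6082 and 5145 to 6284 over 6 genes. Acta1, skeletal actin, carried the skeletal sum and fell from 1814, 2235 and 2103 to 172, 323 and 301 (-2.92 ± 0.16). It was the only skeletal marker of the 7 that fell, while 4 rose, among them Mylpf (1.84), with a list median of 0.33 (3 and 1 under quantile normalization, 3 and 2 with centred arrays). The part of any change in cell types in the results was not tested.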

How the data were processed

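Total RNA of 15 samples of mouse embryonic fibroblasts in 5 groups of 3 was hybridised to Affymetrix mouse GeneChips in a 1-colour design. The authors deposited linear intensity values for 45037 probe sets, for which background correction, scaling and summary method are not given in the sources used here. Of these, 34945 probe sets had 1 gene symbol in the platform annotation, 932 several and 9160 none, and those with several or none were left out. Groups were taken from the sample labels. Intensities were kept on the deposited scale and transformed as log2(intensity + 16), so fold changes of dim genes are understated. Probe sets had to exceed the 40th percentile of 3 or more arrays, and the brightest probe set of each symbol by its mean was used, which left 13382 of 18193 symbols. The model was linear with a coefficient for every group (limma 3.58.1, R 4.3.3), covered the 15 arrays so that the groups share an estimate of the spread, and its moderated p-values were adjusted by Benjamini-Hochberg within each contrast, with 0.05 as the threshold. The script was tested on simulated data.

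The genes and gene lists were chosen with earlier results of these data known. The rule for named genes took the 4 class I deacetylases, the 15 highest and 15 lowest fold changes with arrays that do not overlap, the most changed members of every list (at most 6), 14 cell cycle regulators (Trp53 not analysed here), up to 12 genes near background in control, and up to 8 genes in each direction by the interaction and by the smaller change against control and +/+ cells. Asns, Ccnd2, Ccnf, Ccng1, Col6a2, Ctsd, Gtse1, Igfbp6, Krt8, Lamp1, Lrp5, Mcm5, Mki67, Mmp2, Pola1, Sertad1, Sgce, Sqle and Vegfa fall outside the rule where they are named and were chosen after their values were seen. Promoter windows of 300 bases came from RefSeq (GRCm38.p6) and were matched by symbol to 10734 of the genes tested, the first listed window being used for symbols with several. Motifs were searched on both strands as GGGCGG (GC box), TTCCCGC or TTGGCGC (E2F), TTTGAA (CHR), CCAAT and CACGTG (E-box). Figures were drawn with matplotlib 3.10.9 in Python 3.11.15.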

Additional observations from a re-analysis of the deposited data

Results flagged for a closer look

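The effect of tamoxifen on fl/fl cells differed with and without the Hdac2 micro-RNA for 5749 genes by the interaction test of the limma model (43% of those tested). The values that follow are the departure of combined loss from the sum of the single changes, on the log2 scale. The highest were 7.91 for Bex1, 7.80 for Igf2, 6.24 for Mgst1, 5.54 for Itih5, 5.49 for Gpx3, 5.40 for Sfrp1, 5.40 for Bex2 and 5.33 for Clca3a2, a calcium-activated chloride channel regulator, with adjusted p-values no higher than that of Clca3a2 (1.6e-10). The lowest were -4.18 for S100a4, -3.10 for Cxcl3, -3.08 for Acta1, -2.90 for Styk1, -2.83 for Ifi202b, -2.75 for Lrr1, -2.70 for U90926 and -2.60 for Cdca2, a mitotic phosphatase regulator. Cxcl3 differs from the others, since its knockdown value, and not its combined-loss value, stood far from control. U90926 was at 4112, 4611 and 3914 in control and at 309, 861 and 340 with combined loss, with a mean of 1010 in +/+ cells.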

How the results depend on the processing

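With each array centred on its median 3997 genes were higher and 5526 lower, with 878 lower by 2-fold or more. Under quantile normalization 4894 were lower, and 1122 were higher and 899 lower by 2-fold or more. Leaving out 1 control or combined-loss array at a time gave 5707 to 6020 genes higher and 2315 to 2649 lower, and 1653 to 1725 and 531 to 597 by 2-fold or more. The same omissions, added after seeing the data like the list counts without combined-loss replicate 2, gave 7087 to 7553 genes against Hdac1 KO, 7915 to 8438 against Hdac2 Kd, 7701 to 8225 against +/+ cells and 5292 to 5673 for the interaction. The other settings tried (empirical Bayes with a trend, the 2 groups alone, no filter or a stricter one, the mean of probe sets, probe sets without related-sequence suffixes, array weights and a pseudocount of 1) kept these counts within 1.5 times. Array weights did not converge, so that setting bears little weight. It gave Hdac1 KO replicate 2 a weight of 1.16e-05, against 0.889 and 0.868 for replicates 1 and 3, which in effect left that array out. The counts were then 6047 genes against Hdac1 KO (7604 in the main fit) and 5118 for the interaction (5749 in the main fit).

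Replicate numbers were shared between groups, but same-numbered control and combined-loss arrays did not deviate together (correlations of 0.02, -0.009 and -0.079), so the numbers do not pair the arrays. With the replicate number as a block 6077 genes were higher and 2535 lower.

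With +/+ cells as control the sign turned for Cxcl14 (-2.68), Cxcl1 (1.33), Igfbp6 (0.82), Gtse1 (0.16) and Sgce (0.04). It turned for Krt8 with centred arrays (-0.22) and for Vegfa as the mean of its probe sets (-0.22). The cause was not tested. Genes near background have fold changes that are limited by signal and not by the number of arrays alone.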
